A study of Caenorhabditis elegans with 2 samples.

Results

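Of the 5247 pooled ChIP-seq entries on the X chromosome, 2749 had a summit outside every promoter window, and these non-promoter X summits are the members described here. The rule that picks them uses position alone and neither signal nor sequence, but it was set with earlier results of these data known. Every transcript 5′ end in Ensembl WBcel235, piRNAs aside, was given a window of 1000 bp on its upstream side and 500 bp on its downstream side. The members made up 9.16% of the 30000 pooled entries, beside 2498 X summits in windows, 13069 autosomal summits outside windows and 11684 autosomal summits in windows. The authors' IDR list (irreproducible discovery rate) keeps the 590 pooled entries with the highest signal. At the edge of the rule, the IDR summits that lay just outside a window were 2 bp past that of the noncoding RNA gene R160.11 (signal 47.7) and 6 bp past that of the F-box gene fbxb-58 (signal 257). The X IDR summit nearest to an edge on the inner side lay 60 bp within the window of ain-1 (signal 46.0).

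Chromatin immunoprecipitation with sequencing was done on whole L3 larvae of both sexes of Caenorhabditis elegans strain OP353. The strain is unc-119(tm4063) III with the transgene wgIs353, which carries eGFP-tagged nhr-77. There was 1 group with 2 biological replicates, so every library carried the same mutation and transgene, and signal from whole animals merges all cell types. The label of the antibody gives only nhr-77, which does not settle whether it was raised against the tag or the protein, and the matching control libraries were not analysed here.

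NHR-77 belongs to the nuclear hormone receptors, a family of zinc finger transcription factors that is expanded in nematodes. The X chromosome of C. elegans is also the target of the dosage compensation complex, a condensin-based assembly that lowers X transcription in hermaphrodites. That complex loads at recruitment elements on X, called rex sites, and many of these carry a GC-rich motif with the core GCGCAGGG. The core was looked for at the summits, a motif also picked with earlier results of these data known, and a match is a description of letters and not a shown binding site.

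The sequences under the strongest members are shown because the core recurs in them. The members are numbered by falling pooled signal, so member 1 is the highest. Each line gives 151 bases of the plus strand of ce11 (WBcel235, RefSeq sequence), 5′ to 3′ and centred on the summit, and capitals mark GCGCAGGG or its single-letter variant GCGAAGGG on either strand. The variant was added after the letters under the strongest members had been seen. The first 5 lines have the core, and members 4 and 9 the variant alone. Member 11 has neither in full and stands for contrast, but it holds CGCAGGG, the core without its first base.
Member 1, chrX:11094124-11094274, plus strand: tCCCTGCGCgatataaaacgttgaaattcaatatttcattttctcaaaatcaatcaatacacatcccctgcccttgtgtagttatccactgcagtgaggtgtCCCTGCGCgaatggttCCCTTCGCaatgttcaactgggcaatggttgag
Member 2, chrX:6296509-6296659, plus strand: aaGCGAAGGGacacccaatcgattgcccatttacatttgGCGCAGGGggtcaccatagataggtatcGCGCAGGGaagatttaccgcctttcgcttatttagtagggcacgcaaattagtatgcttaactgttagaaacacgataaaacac
Member 3, chrX:4209201-4209351, plus strand: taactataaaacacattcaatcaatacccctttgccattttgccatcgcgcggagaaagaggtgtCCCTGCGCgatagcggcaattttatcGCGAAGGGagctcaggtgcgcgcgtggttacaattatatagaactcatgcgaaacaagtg
Member 6, chrX:2997031-2997181, plus strand: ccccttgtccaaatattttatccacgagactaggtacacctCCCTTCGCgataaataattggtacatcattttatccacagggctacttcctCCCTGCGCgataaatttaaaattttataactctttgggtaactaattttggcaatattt
Member 8, chrX:806595-806745, plus strand: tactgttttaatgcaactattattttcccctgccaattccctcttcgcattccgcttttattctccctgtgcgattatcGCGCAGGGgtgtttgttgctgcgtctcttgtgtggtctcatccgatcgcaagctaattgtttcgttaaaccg
Member 4, chrX:9465801-9465951, plus strand: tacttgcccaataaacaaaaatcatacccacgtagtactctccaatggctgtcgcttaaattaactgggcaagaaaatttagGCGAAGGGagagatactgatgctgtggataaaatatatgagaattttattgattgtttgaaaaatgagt
Member 9, chrX:1627056-1627206, plus strand: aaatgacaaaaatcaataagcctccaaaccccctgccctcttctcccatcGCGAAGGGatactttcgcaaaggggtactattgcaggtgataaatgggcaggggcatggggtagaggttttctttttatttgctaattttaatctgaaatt
Member 11, chrX:11937456-11937606, plus strand: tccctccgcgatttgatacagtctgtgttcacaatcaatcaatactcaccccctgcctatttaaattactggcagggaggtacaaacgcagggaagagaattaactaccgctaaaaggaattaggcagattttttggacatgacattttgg
Members 1 and 2 each held the core at 2 places within these bases, together with 1 copy of the variant. Members 3 and 6 held 1 of each.

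The core was present within 100 bp of the summit, on either strand, in 14 of the 2749 members (0.509%, 95% interval 0.279 to 0.853%), beside 0.153% of all pooled summits. The share was much the same for X summits in windows, where 11 of 2498 had it (0.440%, 0.220 to 0.787%). Among members, the core was found mostly at the strongest. The IDR list held 40 members, and 12 of these had the core (30%, 16.6 to 46.5%). The core was found at 4 of the 75 X summits in windows of the same list (5.33%, 1.47 to 13.1%), at 0 of the 86 autosomal summits outside windows (upper limit 4.2%) and at 2 of the 389 autosomal summits in windows (0.514%, 0.0623 to 1.84%). Among members alone, it was present at 10 of the first 17, at 2 of members 18 to 40, at 1 of members 41 to 200 and at 1 of members 201 to 2749. The cut at member 17 was not planned in advance. Of the first 25 members, a planned cut, 11 had the core (44.0%, 24.4 to 65.1%). These intervals are exact (Clopper-Pearson) and cover counting error only, and the differences between places were not tested.

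**Figure D1:**
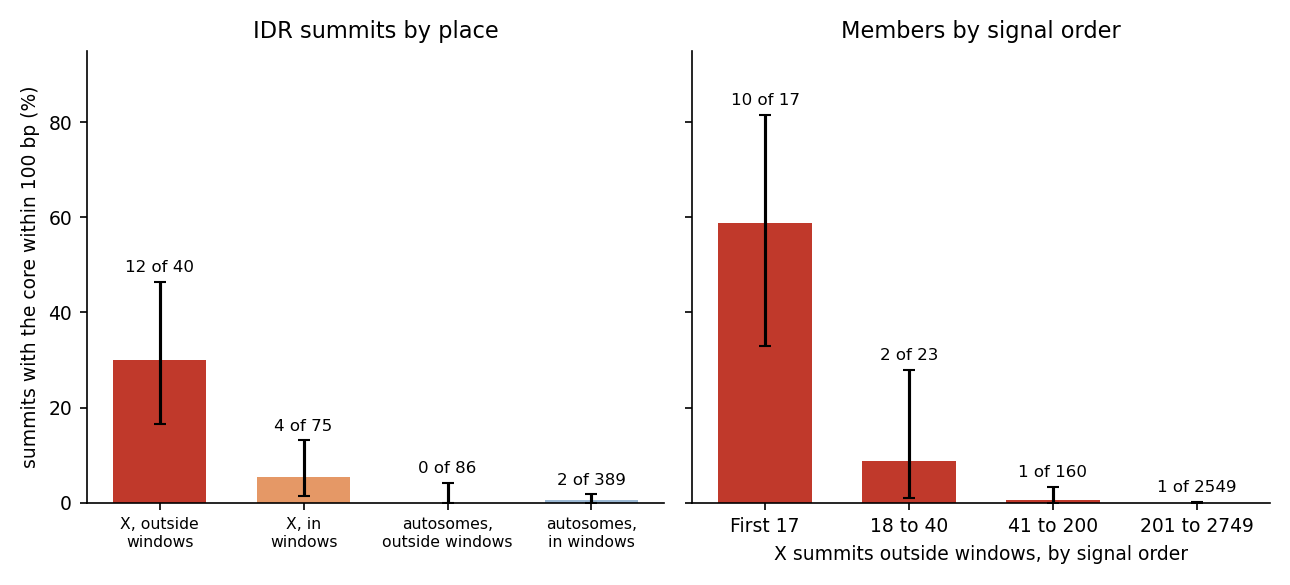
Share of summits with GCGCAGGG within 100 bp, in percent. The left panel gives IDR summits in the order of X outside windows, X in windows, autosomes outside windows and autosomes in windows, and the right panel gives the non-promoter X summits by falling signal. Bars are shares, lines are exact 95% intervals, and the counts stand above them. The share is 30% for X summits outside windows, and 10 of the first 17 members, a cut not planned in advance, hold the core.

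The centre of the nearest core lay between 3 and 59 bp from the summit, with a median of 28.5 bp. It read on the plus strand at 6 members and on the minus strand at 6, and 3 members (1, 2 and 8) had more than 1 copy. The search reached no farther than 100 bp, so the distances describe the copies found and do not show that the core gathers at summits. The 12 IDR members with the core had a median pooled signal of 224 (47.7 to 427), and the 28 without it had a median of 51.3 (28.9 to 301). The ranges overlapped. Counting the variant too, 18 of the 40 IDR members (45.0%, 29.3 to 61.5%) and 14 of the first 17 held GCGCAGGG or GCGAAGGG. The variant alone was at 4, 5, 9, 13, 18 and 21, while members 10, 11 and 16 were those of the first 17 with neither.

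Most copies of the core on X were not at a strong summit. The X sequence held 81 copies, or 4.57 per Mb, of which 29 lay within 100 bp of any pooled summit, 20 of an IDR summit and 15 of an IDR member. The autosomes held 233 copies, or 2.82 per Mb, of which 21 lay near a pooled summit and 2 near an IDR summit. For the variant, 11 of 140 copies on X lay near an IDR member, while 0 of 491 autosomal copies lay near an IDR summit. Outside the IDR list the core was found at 2 of 2709 members (0.0738%, 0.00894 to 0.266%), against 7 of 2423 X summits in windows (0.289%, 0.116 to 0.594%). These members were an intergenic summit 3295 bp from the 5′ end of R11.3 (signal 20.8, rank 1280) and one 2988 bp from that of sedl-1 (signal 10.4, rank 8818).

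The other motifs searched in the same window were each found at 4 or fewer of the 40 IDR members. The nuclear receptor half-site AGGTCA was present at 1 of 40 IDR members (2.50%, 0.0633 to 13.2%), against 132 of all 2749 members (4.8%). GAGAGAGA was at 1 of 40 IDR members (2.50%), against 1.13% of all members, and TGAGTCA at 1 (2.50%), against 1.75%. CACGTG was at 2 IDR members (5%, 0.611 to 16.9%), against 3.53% of all members, and CTTATCA at 2 (5%), against 4.11%. The IDR intervals of these 5 motifs hold the share of all members. Among other IDR summits GAGAGAGA was at 14.7% of X ones in windows, 14.0% of autosomal ones outside windows and 7.71% of autosomal ones in windows. The shares of 14.7% and 14.0% lie above the upper limit of 13.2% for IDR members. The T run TTTTTTTT was at 4 IDR members (10%, 2.79 to 23.7%), against 24.8% of all members and 25.2% of all pooled entries. Over the whole IDR list its share was 13.6% (10.9 to 16.6%). It was at 6 of 75 X IDR summits in windows, 15.1% of autosomal ones outside windows and 14.7% of autosomal ones in windows. The low share was thus not particular to members. The tRNA B box letters GGTTCGA were at 0 of 40 (upper limit 8.81%), against 1.09% of all members. They were at 17.3% of X IDR summits in windows, 4.65% of autosomal ones outside windows and 3.34% of autosomal ones in windows. These counts concern letters in the window and say nothing of the factors that read them.

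By signal, the members took many of the highest ranks of the pooled list. The signal is column 7 of the authors' lists, read here as enrichment over control from the layout of the files, since the caller is not named, and its absolute scale has no unit. Members filled 8 of the first 10 ranks, 13 in the first 25, 17 in the first 50, 21 in the first 100 and 28 in the first 200. Over the whole IDR list they made up 40 of 590 entries (6.78%, 4.89 to 9.12%), against 9.16% of the pooled list. Put the other way, 1.46% of members (1.04 to 1.98%) reached the IDR list, beside 1.97% of all pooled entries, 3.00% of X summits in windows, 0.658% of autosomal summits outside windows and 3.33% of autosomal summits in windows. The lowest IDR member had signal 28.9 at rank 585, and the next member below the list had 28.2 at rank 617.

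IDR members had a median signal of 64.8 (range 28.9 to 427), against 40.6 (29.3 to 269) for X summits in windows, 36.9 (28.9 to 107) for autosomal summits outside windows and 38.3 for autosomal summits in windows. All groups overlapped only in the lower part of the members' range, up to 107, and the gap was at the top. A signal over 100 was found at 15 of 40 IDR members (37.5%, 22.7 to 54.2%), at 5 of 75 X summits in windows (6.67%), at 1 of 86 autosomal summits outside windows (1.16%) and at 16 of 389 autosomal summits in windows (4.11%). Over whole lists the medians were close, at 8.13 for all members, 8.55 for X summits in windows, 7.98 for autosomal summits outside windows and 8.61 for autosomal summits in windows. So the high signal belonged to a small set of members. The median GC share of the 201 bases around the summit was 39.3% for IDR members and 34.8% for all members, beside 42.3% for all IDR entries.

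**Figure D2:**
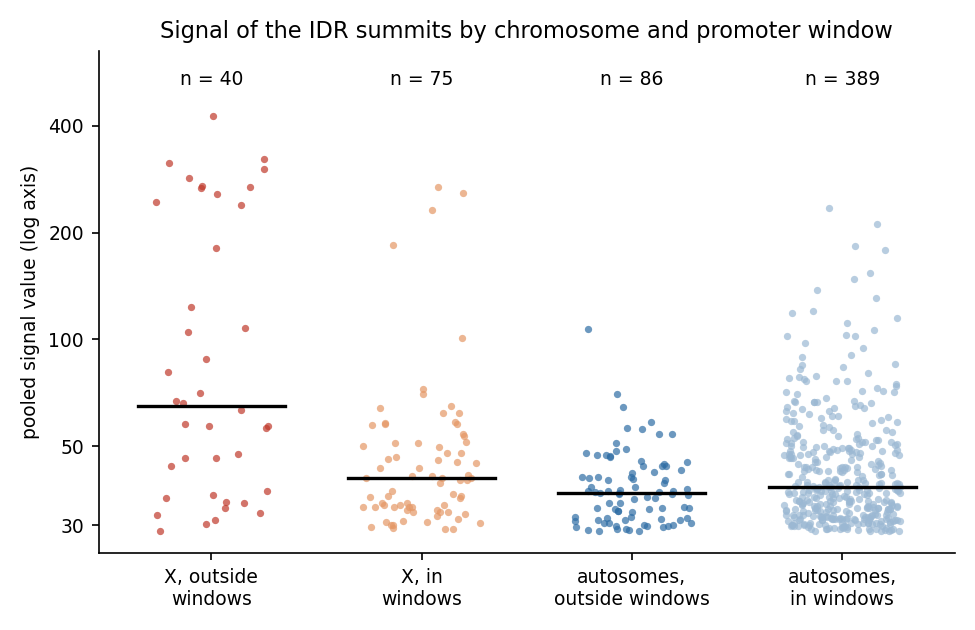
Pooled signal of every IDR summit on a log axis, in 4 groups with X summits outside windows at the left. Each point is a summit and each black line a median. The members reach 427 with a median of 64.8, while the other groups have medians from 36.9 to 40.6.

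The strong members also differed in peak width. The caller gave most entries one width, 344 bp, and 23 of the 40 IDR members had it (57.5%), against 92.0% of X summits in windows, 96.5% of autosomal summits outside windows and 92.3% of autosomal summits in windows. The exceptions among IDR members were members 1 to 16 and member 25, with widths from 93 to 438 bp. The groups also differed in signal, and widths were not compared at equal signal.

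The strongest members were found again in each replicate. Member 1, between the genes W04G3.11 and W02H3.t1, had signal 214 in replicate 1 and 194 in replicate 2 and ranked first in both. Member 2, in an intron of mom-1, the Porcupine-type acyltransferase needed for Wnt secretion, had signals of 152 and 157 and ranked 3 in both. Member 3, in the gap between F20B6.9 and hpk-1, a homeodomain-interacting protein kinase gene, had signals of 156 and 155. Members 1 to 15 all ranked within the first 50 of both lists, the lowest of them at 38 in replicate 1 and 46 in replicate 2. Member 16 was the first without a match: it ranked 27 in replicate 1 (signal 55.3) and had no summit within 100 bp in replicate 2. Applied to each replicate's own list, the position rule placed 7 entries in the first 10 of replicate 1 and 6 in the first 10 of replicate 2, and 12 and 11 in the first 25.

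Among the 40 IDR members, 37 were matched in replicate 1 (92.5%), 35 in replicate 2 (87.5%) and 32 in both (80.0%, 64.4 to 90.9%). Over all members the shares were lower: 331 were matched in both lists (12.0%), beside 13.9% of all pooled entries. Within the first 590 of replicate 1 were 38 members (1.38%), beside 1.90% of all entries, and within the first 590 of replicate 2 were 39 (1.42%), beside 1.80%. In both first 590 were 24 (0.873%), beside 0.890%, and all 24 were IDR members (60.0% of the 40, 43.3 to 75.1%). The corresponding share was 50.7% (38.9 to 62.4%) for X IDR summits in windows, 37.2% (27 to 48.3%) for autosomal ones outside windows and 44.2% (39.2 to 49.3%) for autosomal ones in windows. The pooled list is built from the same reads as the replicate lists, so some of the recovery is built in. Of the 12 members with the core, 11 were within the first 590 of both replicates, and of the 28 without it, 13 were. The members with the core also had the higher median signal (224 against 51.3), and the sets were not compared at equal signal.

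Over the 32 IDR members matched in both, the signal of replicate 1 followed that of replicate 2 with a Spearman rho of 0.90 and a Pearson r of 0.90 on log2 signal. By signal order, rho was 0.91 over 16 matched members of the first 17 and 0.36 over 16 matched members of numbers 18 to 40. The weaker band spans a narrower range of pooled signal (28.9 to 70.5, against 81.1 to 427), and a narrow range lowers rho. The rho values thus do not show in which band the replicates were more alike. These values describe summits that were chosen by pooled signal and share 2 libraries.

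**Figure D3:**
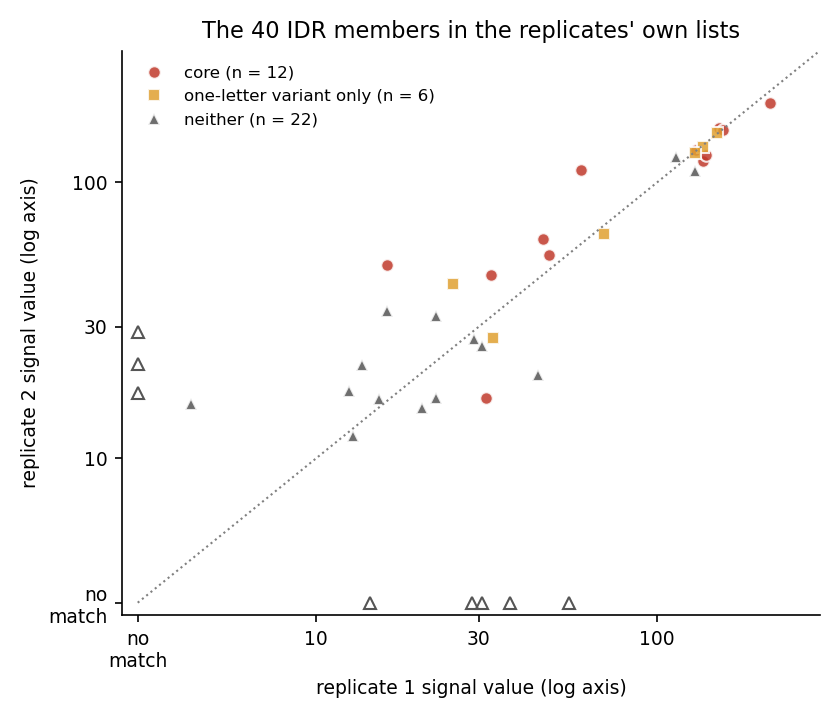
Signal of the 40 IDR members in replicate 1 (horizontal) and replicate 2 (vertical), both on log axes, with filled marks for members matched in both lists and open marks on the axes for members without a match in one. Symbols separate members with the core, with the variant alone and with neither, and the dotted line marks equal values. Members with signals over 100 in both replicates lie close to the line, and the 8 unmatched ones have neither motif.

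The weaker IDR members moved more between replicates. Member 38, in an intron of the nuclear receptor gene nhr-14, ranked 20354 in replicate 1 (signal 4.29) and 603 in replicate 2 (15.8). Member 22 ranked 606 in replicate 1 and 51 in replicate 2, with signals of 16.2 and 50.4. Member 20, in an intron of nhr-3, had the opposite order, at rank 40 in replicate 1 (44.7) and 328 in replicate 2 (20). Member 24, between the V-ATPase subunit gene vha-15 and the ribosomal protein gene rpl-11.2, ranked 610 in replicate 1 and 93 in replicate 2, and member 26, nearest to R160.11, ranked 104 in replicate 1 and 516 in replicate 2. Members 27, 28, 35 and 40 were, like member 16, unmatched in replicate 2, and members 30, 31 and 32 were unmatched in replicate 1. The values of all 8 unmatched members therefore come from 1 replicate and the pool. Unmatched means only that no summit lay within 100 bp.

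Strong members lay mostly between genes. Of the 40 IDR members, 30 had an intergenic summit (75%, 58.8 to 87.3%), 7 lay in an intron (17.5%, 7.34 to 32.8%), 2 in coding sequence and 1 in a 3′ UTR. The other 2709 members had 33.7% intergenic summits (31.9 to 35.5%), 35.3% in introns, 22.1% in coding sequence and 7.94% in 3′ UTRs. Of the 10.5 Mb of X outside windows, 37.6% is intergenic, 33.6% intronic, 22.9% coding and 4.33% 3′ UTR. The other members' intergenic share was thus a little under that of the bases, and their 3′ UTR share above it. For comparison, 57.0% (45.8 to 67.6%) of autosomal IDR summits outside windows and 65.3% (53.5 to 76.0%) of X IDR summits in windows were intergenic. Over the whole IDR list the share was 63.9% (59.9 to 67.8%), which lies within the members' interval. A high intergenic share was thus not shown to be particular to members.

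**Figure D4:**
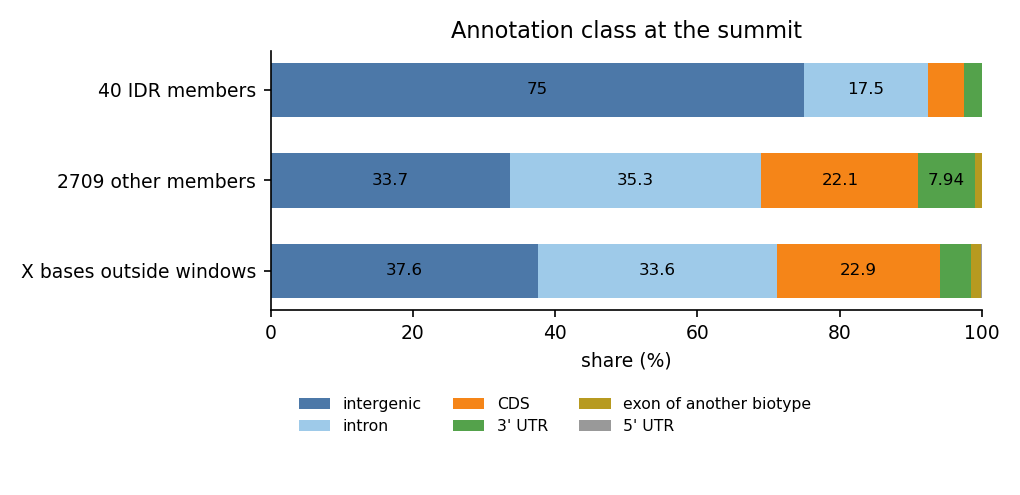
Annotation class at the summit base, in percent, for the 40 IDR members, the 2709 other members and the X bases outside promoter windows, from top to bottom. Segments are coloured by class and those over 6% carry their value. Intergenic summits make up 75% of the IDR members and 33.7% of the others.

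The 7 intronic IDR members had different hosts apart from being in protein coding genes. They lay in mom-1 (member 2, intron of 1299 bp), Y41G9A.17 (member 6, 2279 bp), nhr-3 (member 20, 926 bp), T04C10.3 (member 23, 620 bp), unk-1 (member 29, 1229 bp), pdk-1 (member 36, 2051 bp) and nhr-14 (member 38, 385 bp). Only that of unk-1 was a first intron of the transcript used. The median host intron of these was 1229 bp, against 782 bp over the 956 other intronic members. Member 12 had its summit in coding sequence of pks-1, a polyketide synthase gene, and member 31 in that of gei-15, while member 30 lay in the 3′ UTR of F59F4.3. Member 12 was also the farthest from a protein coding 5′ end, at 15202 bp, and it held the core and the variant.

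The intergenic gaps were mostly not divergent ones. The rule leaves out 1000 bp upstream of every 5′ end, which takes more from divergent gaps than from convergent ones. Among the 30 intergenic IDR members, the flanking genes ran in tandem at 15, towards each other (convergent) at 13 and apart at 2. The IDR shares were 50% tandem, 43.3% (25.5 to 62.6%) convergent and 6.67% (0.818 to 22.1%) divergent, against 55.7%, 23.4% and 20.9% over all 943 intergenic members. The median gap was 3258 bp (555 to 13599 bp) for IDR members and 4654 bp for the other intergenic members. Member 10 had the narrowest, between the convergent genes F19H6.6 and F19H6.5. Member 25 had the widest, between B0294.1 and ZC53.1.

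The nearest protein coding 5′ end was a median of 2538 bp away for IDR members (743 to 15202 bp) and 2094 bp for all members. The summit lay upstream of it at 9 of 40 IDR members (22.5%, 10.8 to 38.5%), against 35.5% of all members. Both shares are lowered by the rule, which leaves out more bases upstream of a 5′ end than downstream. For members 1 to 4 the nearest coding 5′ ends were those of W02H3.3, the carboxylesterase-type gene cest-16, F20B6.9 and ZK899.6, and for members 5 to 8 K02D3.1, Y41G9A.17, F22H10.2 and gtr-1, a receptor-type gene. For members 9 to 13 they were fbxb-58, F19H6.5, F55G7.5, C41A3.2 and F43E12.1, and for members 14 to 17 the collagen gene col-185 (3496 bp), T24D8.6 (1091 bp), F56C3.1 (2249 bp) and B0302.2 (2882 bp). Members 14 and 15 had the cyclin-dependent kinase gene cdk-4 and the ligand-gated channel gene lgc-40, each ending towards the summit, as a flanking gene. For members 18 to 21 the nearest coding 5′ ends were those of the basic helix-loop-helix gene hlh-29 (4043 bp), sma-9 (2928 bp), which encodes a Schnurri-type zinc finger protein of the TGF-beta pathway, nhr-3 (1864 bp) and the chemoreceptor gene srg-64 (3920 bp). For members 22 to 25 they were F20B6.9 (1203 bp), T04C10.3 (1210 bp), rpl-11.2 (1123 bp) and ZC53.1 (3794 bp).

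A tRNA gene began within 5 kb of 10 of the 40 IDR members (25%, 12.7 to 41.2%), against 7.20% (6.26 to 8.23%) of all members. These were members 1, 2, 4, 9, 10, 11, 13, 14, 32 and 37. None was within 1000 bp, most of which the rule leaves out through the windows of the tRNA genes themselves. The closest were W02H3.t1 at 1474 bp from member 1 and ZK899.t1 at 1924 bp from member 4. The share near a tRNA gene was not counted for IDR summits other than members, so it is not shown to be particular to them.

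Gene lists were counted as hosts or flanking genes of IDR members, beside 112 of all 5860 X genes (1.91%) and 86 of 2731 protein coding ones (3.15%). Of the 23 X genes with an nhr- symbol, 3 were hosts or neighbours (13%, 2.78 to 33.6%), namely nhr-14, nhr-3 and nhr-35. They flank or host members 20, 27, 38 and 39. Receptor genes under other symbols, such as daf-12, were not on this list. Of 18 X genes with a ceh- symbol it was 0. An ion channel and synapse list held the 90 X genes with symbols starting unc-, egl-, twk-, acr-, lgc-, glr-, flp- or nlp-. Of these it was 1, lgc-40. The list goes by symbol alone, and mec-10, which flanks member 27, was not on it. Among RNA genes it was 2 of 276 tRNA genes, 0 of 33 snoRNA genes and 3 of 74 miRNA genes. None of the 6 dosage compensation and X signal genes on X was a host or neighbour. The nearest of these was xol-1, the master switch of sex determination, 21.4 kb from member 29, followed by ceh-39 at 53.4 kb, sdc-1 at 69.7 kb, sdc-2 at 70.2 kb, fox-1 at 80.2 kb and sex-1 at 561 kb.

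IDR members were spread along all of X. Cut into 3 stretches of equal length, the chromosome held 14, 13 and 13 of them from left to right, and 17 of its 18 bins of 1 Mb held between 1 and 5. The bin without one was the fourth from the left. The gap between neighbouring IDR members had a median of 334 kb and ran between 0.588 and 1300 kb. X IDR summits in windows, of which there were 75, had a median gap of 200 kb. All 2749 members lay 3.49 kb apart in the median, with 124 to 174 in each bin.

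The closest pair of IDR members was 588 bp apart. It was members 22 and 3, both in the gap between F20B6.9 and hpk-1 and both with the core. The next was 1.69 kb apart, members 27 and 38 beside and within nhr-14. All other gaps were at least 27.6 kb wide, the next being members 40 and 31 at 27.6 kb, 35 and 2 at 42.3 kb, and 36 and 16 at 66.4 kb. The widest were 1300 kb between members 4 and 19, 1212 kb between members 6 and 22, and 1151 kb between members 10 and 14. After these came 991 kb between members 38 and 4 and 903 kb between members 39 and 12.

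**Figure D5:**
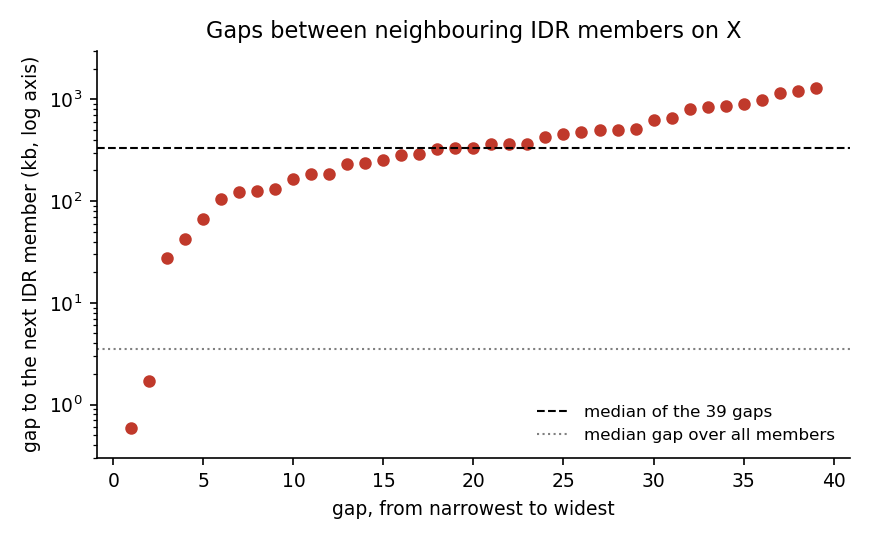
The 39 gaps between neighbouring IDR members on X, sorted by width, with the gap in kb on a log axis. The dashed line is their median of 334 kb and the dotted line the median gap of 3.49 kb over all 2749 members. A pair of gaps lies under 2 kb and the others at 27.6 kb or above.

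Some long genes held many weak members. Members with a summit within a gene fell in 1017 host genes, of which 616 had 1 member each. The genes with most were nhr-27, a nuclear receptor gene with 16 members over 103 kb, daf-12, the dafachronic acid receptor gene with 15 over 31.0 kb, and lin-14, a heterochronic timing gene with 14 over 20.3 kb. Next were gap-2, a Ras GTPase-activating protein gene with 12 over 44.0 kb, and scd-1 with 11 over 21.9 kb. None of these held an IDR member, and the highest signal in any of them was 19.9, in lin-14. The count of members was not set against gene length.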

How the data were processed

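Per the labels and the inventory texts, the authors called relaxed ce11 peak lists on each replicate and on both pooled, each against a control, and derived an IDR list from them. The deposited signal value (column 7) is taken as the caller's enrichment from the narrowPeak layout, which no label states, and describes and ranks entries within a list. For the aligner, the caller, their versions and the threshold of the IDR step, the sources used here give nothing, and read depth is unknown. The ce10 lists were not used. The labels call the samples biological replicates 1 and 2.

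Summits were compared with Ensembl release 115 transcripts (46890 genes on the nuclear chromosomes) in Python 3.11.15 with pandas 2.3.3, numpy 2.4.6, SciPy 1.17.1 and matplotlib 3.10.9. A replicate summit within 100 bp was a match, the highest signal being taken. Classes were assigned at the summit base in the order coding, 5′ UTR, 3′ UTR, other exon, intron, intergenic. Shares carry exact 95% intervals, and no test was made since there is 1 group. The code was tested on simulated data. Named were the 25 strongest members, members with the core, those least alike between replicates, the closest and widest gaps, the hosts with most members and the list genes next to IDR members; others named were chosen after their values were seen. The members, motifs and gene lists were chosen with earlier results of these data known. The lists were dosage compensation and X signal, nhr symbols, ceh symbols, ion channel and synapse by symbol start, tRNA, snoRNA and miRNA. Alternatives changed windows, lists, matching, motif letters and motif windows.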

Additional observations from a re-analysis of the deposited data

How the results depend on the processing

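Of 58 alternative values, 55 stayed within 1.5 times the reported count or within the reported value's 95% interval. With windows of protein coding transcripts only, the IDR members numbered 73 rather than 40 and their median gap was 197 kb. Among the 295 stronger IDR entries the median gap was 504 kb, with fewer summits by construction. Each replicate's own list gave 40 and 41 members in its first 590, 11 and 12 in its first 25, a core share of 26.8 to 30% and a median gap of 287 to 331 kb. The share of IDR members with the core was 22.5% within 50 bp of the summit, 32.5% within 200 bp, 32.5% for the letters CGCAGGG, 17.5% for CGCGCAGGG and 17.8% with coding windows only. It was 45.0% with the variant, an alternative chosen after seeing the data. Upstream reaches of 500 and 2000 bp gave 48 and 29 IDR members. The share of IDR members within the first 590 of both replicates was 60.0% with matching within 50 bp and 67.5% within 200 bp. No paired analysis was possible because the series has 1 group. Depth is unknown, and intervals cover counting error only. No ce10 alternative was run.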

Other observations

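A count added after the values had been seen concerned the ends of protein coding genes. Among the 30 intergenic IDR members, 10 (33.3%, 17.3 to 52.8%) had a summit within 250 bp past the 3′ end of a protein coding gene, against 128 of the 913 other intergenic members (14.0%, 11.8 to 16.4%). Of these, 8 were among the 16 intergenic members of numbers 18 to 40 and 2 among the 14 of the first 17. The genes were F19H6.6 (68 bp), lgc-40 (78 bp), srg-64 (138 bp), rpl-11.2 (243 bp), nhr-14 (92 bp), the 14-3-3 gene ftt-2 (97 bp), the endoplasmic reticulum chaperone gene hsp-3 (47 bp), the Tribbles-type pseudokinase gene nipi-3 (127 bp), the protein disulfide isomerase gene pdi-2 (168 bp) and the aspartic protease gene asp-3 (59 bp). Only lgc-40 lay at a summit with the core. The difference between the shares was not tested. Summits near 3′ ends were not counted for IDR summits other than members, so the share is not shown to be particular to them.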
